A study of Mus musculus with 2 samples.

Results

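The MYC family, its MAX network partners and the noncoding RNAs that flank MYC on human chromosome band 8q24 were described in 2 xenograft tumors. The 10 symbols were MYC, MYCN, MYCL, MAX, MXD1, MXI1, MNT, PVT1, CASC19 and CCAT1. They were looked up by name among 57011 gene labels, as a label of their own or inside a merged locus, where the authors gave 1 value to overlapping genes. The members were chosen by their FPKM in both libraries and the difference between them, so these values are given as descriptions. Of the 10, 9 were found. MYC, MYCN, MYCL, MAX, MXI1, MNT and CASC19 had a row of their own. PVT1 stood in a locus merged with a clone name and short RNAs, which was read as PVT1. MXD1 stood in a locus merged with the protein-coding splicing gene SNRNP27, so its value belongs to both genes. No row named CCAT1, and no value is given for it.

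MYC, MYCN and MYCL are paralogous transcription factors that bind E-box DNA as heterodimers with MAX and drive genes of ribosome production, metabolism and cell growth. MXD1, MXI1, MXD3, MXD4, MNT and MGA also bind MAX, compete with MYC for it and bring repressors to the same sites. The 8q24 region around MYC is poor in coding genes and rich in enhancers and noncoding RNAs. CASC19, CCAT1 and CASC8 lie on one side of MYC and PVT1 on the other, and the region is amplified in many carcinomas. MYCN is the paralog best known from tumors of neural origin, and MYCL from small cell carcinomas.

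The metastatic group was 1 library from a metastatic gastroenteropancreatic neuroendocrine tumor grown in the peritoneal cavity. The primary group was 1 library from a primary tumor of that type grown in the flank. Both were human tumors passaged untreated in athymic nude mice of the strain Foxn1nu, which lack T cells, and RNA came from the pellet of dissociated tumor, which can hold host cells. Origin and graft site differed together and cannot be told apart. Each group held 1 library, so the spread between replicates is unknown and nothing was tested.

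Values are FPKM, fragment numbers scaled to transcript length and to the mapped total. They summed to 885319 in the metastatic and 784987 in the primary library, and the read depth behind them is unknown. Log2 ratios divide the metastatic by the primary value after adding 1 FPKM to each, so differences of low genes come out smaller than they are. A gene was called higher or lower at a 2-fold difference of these sums. Among 13811 entries with at least 1 FPKM in a library, 9.22% were higher and 9.35% lower, and the median log2 ratio was 0.03. At 4-fold, 1.19% were higher and 1.88% lower, and CASC19 was the only one of the 10 symbols past it. With both libraries rescaled to the same sum that median was -0.13, 7.17% were higher and 12.6% lower, a shift of all genes against which small differences have to be read.

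Defining markers of the labelled neuroendocrine type were uneven. The granin gene CHGA was listed at 0 in each library, which may be a failed estimate, since HSF1 and FBL, which most cells use, were listed so too. The synaptic vesicle gene SYP stood at 1.96 FPKM in the metastatic and 1.63 FPKM in the primary tumor. UCHL1, encoding a neuronal ubiquitin hydrolase, was abundant, at 705 FPKM in the metastatic and 225 FPKM in the primary tumor. The merged locus of ENO2 and LRRC23 stood at 23.8 FPKM in the metastatic and 81.6 FPKM in the primary tumor. That of SSTR2 and COG1 stood at 34.3 FPKM in the metastatic and 21.9 FPKM in the primary tumor. Neither value can be assigned to the marker alone. Of 13 neuroendocrine markers 5 passed the minimum in a row of their own, of which UCHL1 was called higher and INSM1 and SCG2 lower. Epithelial markers were uneven too. KRT8 was abundant, at 1423 FPKM in the metastatic and 649 FPKM in the primary tumor, as was KRT18, at 904 and 541 FPKM. EPCAM stood at 85.5 FPKM in the metastatic and 62.5 FPKM in the primary tumor, and KRT19 at 46.9 and 38.1 FPKM. CDH1 was low, at 10.1 FPKM in the metastatic and 4.96 FPKM in the primary tumor, and CLDN7, merged with a clone name, was listed at 0 in both libraries. Fibroblast markers summed to 180 FPKM in the metastatic and 560 FPKM in the primary tumor, with 5 of 8 expressed markers lower and 1 higher. COL1A2 carried that sum, at 149 FPKM in the metastatic and 474 FPKM in the primary tumor. How mouse reads were handled is not stated, so sums of human markers may miss host cells. Endothelial markers summed to 2.04 FPKM in the metastatic and 6.39 FPKM in the primary tumor, and without CLDN5 to 0.635 FPKM in the metastatic and 0.661 FPKM in the primary tumor. Immune markers with a row of their own summed to 13.0 FPKM in the metastatic and 4.86 FPKM in the primary tumor. Without LYZ, which carried that sum, they came to 1.02 FPKM in the metastatic and 2.13 FPKM in the primary tumor. KDR, AIF1 and CD3E were listed at 0 in both libraries. The label AIF1 stood on 6 rows, and its 0 may be a failed estimate like that of CHGA. The part of these cells in the differences below was not tested. In bulk tissue fewer cells of a type and less RNA per cell cannot be told apart.

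MYC was the expressed paralog in both tumors. It stood at 144 FPKM in the metastatic and 126 FPKM in the primary tumor. That level exceeded 92.9% of expressed entries in the metastatic and 93.5% in the primary library. The log2 ratio was 0.19, within 2-fold, and 0.02 after rescaling to the same sum. The sign of that small difference held under all 3 rescalings tried. MYCL stood at 0.213 FPKM in the metastatic and 0.292 FPKM in the primary tumor. MYCN stood at 0.0283 FPKM in the metastatic and 0.0567 FPKM in the primary tumor. Both lay under the minimum of 1 FPKM, so no fold was read from them. MYC made up 99.8% of the summed FPKM of the 3 paralogs in the metastatic and 99.7% in the primary tumor.

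**Figure D1:**
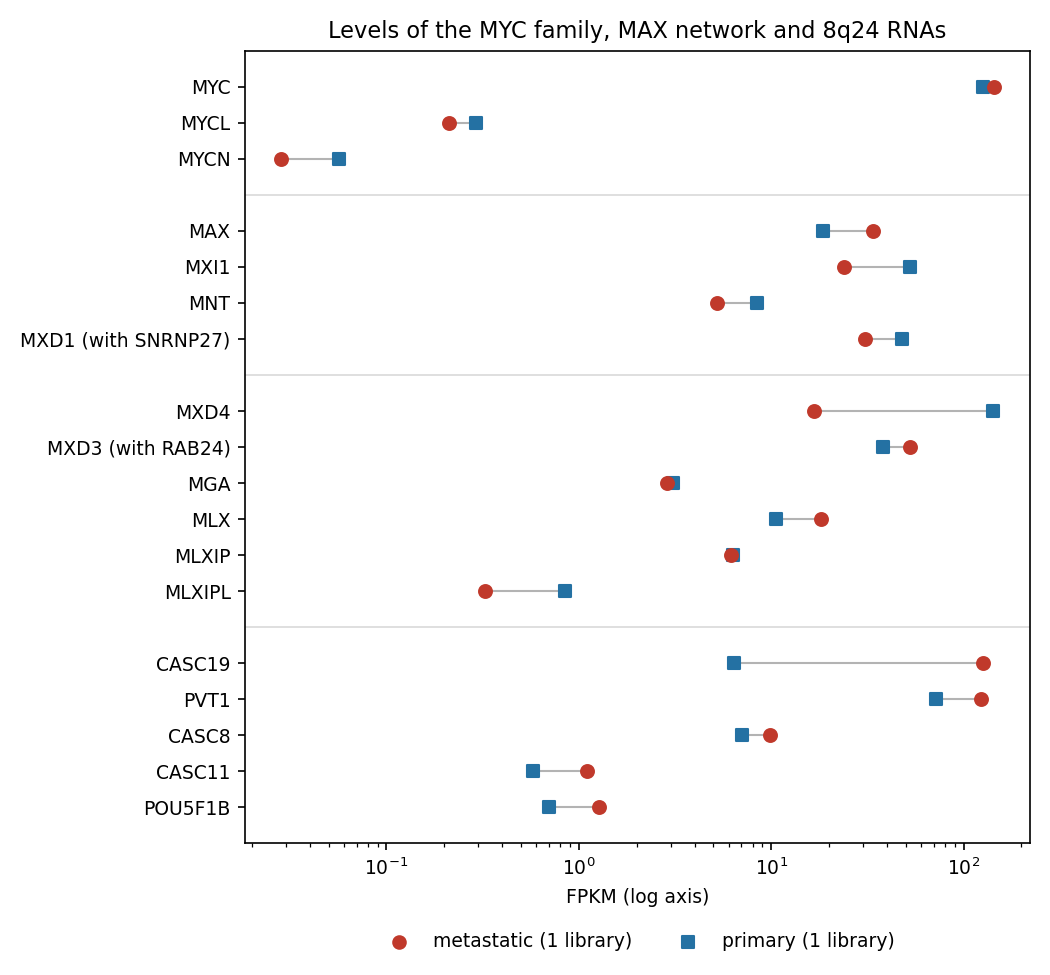
FPKM on a log axis of MYC family genes, MAX network genes and 8q24 RNAs, with a circle for the metastatic and a square for the primary library. MYC lies above 100 FPKM in both while MYCL and MYCN lie under 1 FPKM, and CASC19 and MXD4 have the widest gaps, in opposite directions.

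MAX, the partner that MYC proteins need and MXD proteins also bind, stood at 33.8 FPKM in the metastatic and 18.7 FPKM in the primary tumor. Its log2 ratio of 0.82 was within the 2-fold limit, and it was 0.66 after rescaling to the same sum. MYC was thus 4.26 times as abundant as MAX per transcript length in the metastatic tumor and 6.74 times in the primary tumor. MLX, the partner that MondoA and ChREBP use in the parallel branch of the network, stood at 18.1 FPKM in the metastatic and 10.5 FPKM in the primary tumor, a log2 ratio of 0.73. MLXIP, which encodes MondoA, was nearly level, at 6.19 FPKM in the metastatic and 6.31 FPKM in the primary tumor. The label MLXIP stood on 2 rows, so its values may include a failed estimate. MLXIPL, which encodes the carbohydrate-responsive factor ChREBP, was under 1 FPKM in both, at 0.326 FPKM in the metastatic and 0.851 FPKM in the primary tumor. The shared subunits MAX and MLX thus both stood higher in the metastatic tumor, though under the 2-fold limit.

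Of the MAX-binding antagonists MXI1, MNT, MXD4 and MGA, which had a row of their own, MXI1 and MXD4 were lower in the metastatic tumor and the others were within 2-fold. MXI1, a repressor that competes with MYC for MAX, stood at 23.9 FPKM in the metastatic and 52.4 FPKM in the primary tumor. Its log2 ratio was -1.10, just past the 2-fold limit, and it was the only one of the 10 symbols called lower. MNT, a broadly expressed MYC antagonist, stood at 5.22 FPKM in the metastatic and 8.44 FPKM in the primary tumor, a log2 ratio of -0.60. The locus of MXD1 and SNRNP27 stood at 30.8 FPKM in the metastatic and 47.7 FPKM in the primary tumor, a log2 ratio of -0.61 that cannot be assigned to either gene. Nearest to the 2-fold limit on the inside was MAX, and on the outside MXI1.

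MXD4, another MXD family repressor, was not among the 10 symbols and differed most in the network. It stood at 16.7 FPKM in the metastatic and 143 FPKM in the primary tumor, a log2 ratio of -3.03, and only 96 of 13811 entries had a lower ratio. In the primary tumor MXD4 was more abundant per length than MYC itself, and in the metastatic tumor it was far below it. MGA, a large MAX-binding repressor that also carries a T-box domain, stood at 2.86 FPKM in the metastatic and 3.09 FPKM in the primary tumor. The locus of MXD3 and the RAB gene RAB24 went the other way, at 52.6 FPKM in the metastatic and 38.1 FPKM in the primary tumor. Of 6 further network genes, 4 passed the minimum in a row of their own, and 1 was lower and 0 higher, where 9.35% of all entries were lower.

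The summed FPKM of MXI1, MNT, MXD4 and MGA, a sum chosen after the values were seen, was 48.7 in the metastatic and 207 in the primary tumor. MYC stood at 2.96 times that sum in the metastatic and 0.609 times in the primary tumor. With the loci of MXD1 and MXD3 added in full, the quotients were 1.09 in the metastatic and 0.431 in the primary tumor. These quotients are taken within a library, so rescaling a library does not move them. MXD4 gave most of the gap, since MYC itself was close to level.

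**Figure D2:**
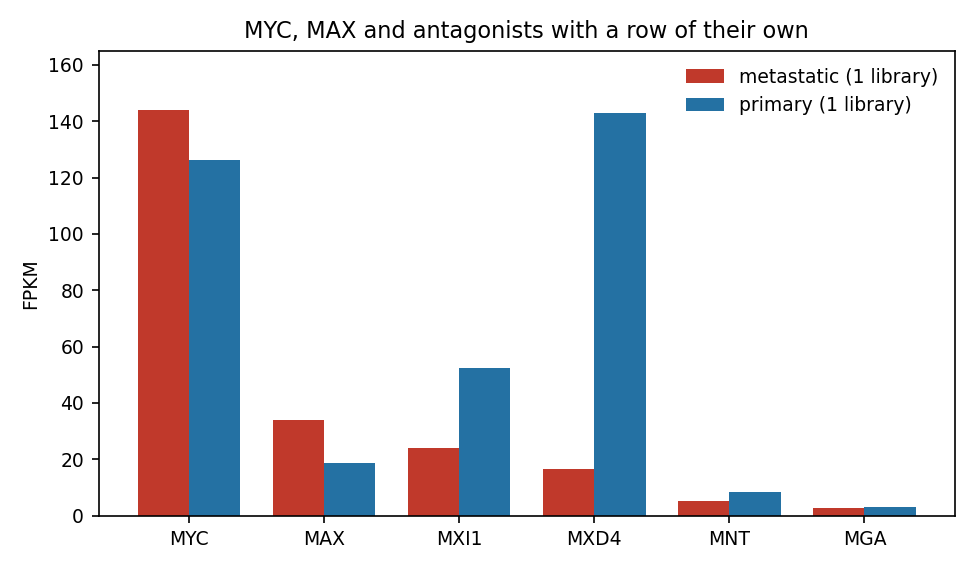
FPKM of MYC, its partner MAX and the antagonists MXI1, MXD4, MNT and MGA, with bars for the metastatic library on the left and the primary library on the right of each pair. MXD4 stands at 16.7 FPKM in the metastatic and 143 FPKM in the primary tumor, while MYC stands above 120 FPKM in both.

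CASC19, a long noncoding RNA of the MYC upstream region, had the widest difference of the symbols found. It stood at 126 FPKM in the metastatic and 6.43 FPKM in the primary tumor. The ratio was 19.6 and the log2 ratio 4.10, and 20 of 13811 entries had a higher one. CASC19 was the only one of the 10 symbols called higher. In the metastatic tumor it was second to MYC among the 9 symbols found, and in the primary tumor it was 7th, above only MYCL and MYCN. It reached 0.876 times the level of MYC in the metastatic and 0.0510 times in the primary tumor. No source used here gives the strand setting of the authors' counting, so reads of overlapping transcripts on the other strand may be included.

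PVT1, a noncoding RNA that lies just beyond MYC and gives rise to several short RNAs, stood at 124 FPKM in the metastatic and 71.8 FPKM in the primary tumor. Its log2 ratio of 0.78 was within 2-fold, and 0.61 after rescaling to the same sum. The row also names MIR1204, MIR1206 and MIR1207, so no value can be given to those miRNA genes alone. MIR1205 and MIR1208 were listed at 0 in both libraries. PVT1 stood at 0.858 times the level of MYC in the metastatic and 0.570 times in the primary tumor. PVT1 and MYC, on the same side of the 2-fold limit, both differed far less than CASC19.

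The 3 other noncoding neighbours that passed the minimum did not share the difference of CASC19. CASC8, from the same upstream stretch, stood at 9.91 FPKM in the metastatic and 7.04 FPKM in the primary tumor, a log2 ratio of 0.44. CASC19 was 12.7 times as abundant as CASC8 in the metastatic and 0.914 times in the primary tumor. CASC11, a noncoding RNA adjacent to MYC, stood at 1.11 FPKM in the metastatic and 0.575 FPKM in the primary tumor. POU5F1B, a retrogene copy of the pluripotency factor POU5F1, stood at 1.27 FPKM in the metastatic and 0.696 FPKM in the primary tumor, and is uncertain because the copies are nearly identical. CCDC26 stood at 0.0475 FPKM in the metastatic and 0.163 FPKM in the primary tumor. PRNCR1 stood at 0.00673 FPKM and LINC00824 at 0.106 FPKM in the metastatic tumor, and both were listed at 0 in the primary tumor. The label LINC00824 stood on 2 rows, so its values may include a failed estimate. CCAT2 and TMEM75 were listed at 0 in both. Of 18 neighbours sought, 5 had no row, 7 were under the minimum and 3 stood only in the PVT1 locus. Those without a row were PCAT1, PCAT2, CASC21, LINC00976 and LINC00977, so nothing can be said of them. The other 3, CASC8, CASC11 and POU5F1B, were all within 2-fold. CASC11 and POU5F1B passed the minimum only in the metastatic tumor, at little above 1 FPKM, where the added 1 FPKM makes differences smaller.

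Coding genes of the band had log2 ratios below 0 more often than above, though most were within 2-fold. Of 28 expressed genes flanking the MYC region, 6 were lower, or 21.4% against 9.35% of all entries, and 0 were higher. Their median log2 ratio was -0.38. NDRG1, a stress-responsive gene that is also known to be repressed by MYC, stood at 91.2 FPKM in the metastatic and 849 FPKM in the primary tumor. TRIB1, encoding a pseudokinase, stood at 19.8 FPKM in the metastatic and 112 FPKM in the primary tumor. The potassium channel gene KCNQ3 stood at 0.347 FPKM in the metastatic and 4.14 FPKM in the primary tumor, while ZHX2, encoding a zinc finger and homeobox repressor, stood at 7.47 FPKM in the metastatic and 25.5 FPKM in the primary tumor. Of the 6 lower genes the remaining ones were TMEM65 and RNF139, named after their values were seen.

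Further along the band toward the chromosome end, 42 coding genes were expressed, of which 1 was higher, or 2.38% against 9.22% of all entries, and 5 were lower, with a median log2 ratio of -0.31. The 5 are 11.9%, near the 9.35% of all entries. ARC, a neuronal immediate early gene, was the higher one, at 11.4 FPKM in the metastatic and 3.68 FPKM in the primary tumor. PTK2, encoding focal adhesion kinase, stood at 29.8 FPKM in the metastatic and 69.9 FPKM in the primary tumor. DENND3 stood at 3.73 FPKM in the metastatic and 10.6 FPKM in the primary tumor, and RHPN1 at 1.57 FPKM in the metastatic and 5.99 FPKM in the primary tumor. Over both coding lists 51 of 70 expressed genes, or 72.9%, had a log2 ratio below 0, against 47.7% of all entries. With equal sums 55 of 70, or 78.6%, lay below 0, against 57.0% of all entries. In this stretch 18 of 68 coding genes were listed at 0 in both libraries, each of them over 2 rows. They include HSF1, SCRIB and CPSF1, named after their values were seen, which most cells use. A value of exactly 0 may therefore come from a failed estimate. EEF1D, GFUS, ZC3H3 and VPS28, also named after their values were seen, had 2 rows too and are counted among the 42. EEF1D stood at 2.41 FPKM in the metastatic and 1.62 FPKM in the primary tumor, and the same limit may apply to these genes.

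**Figure D3:**
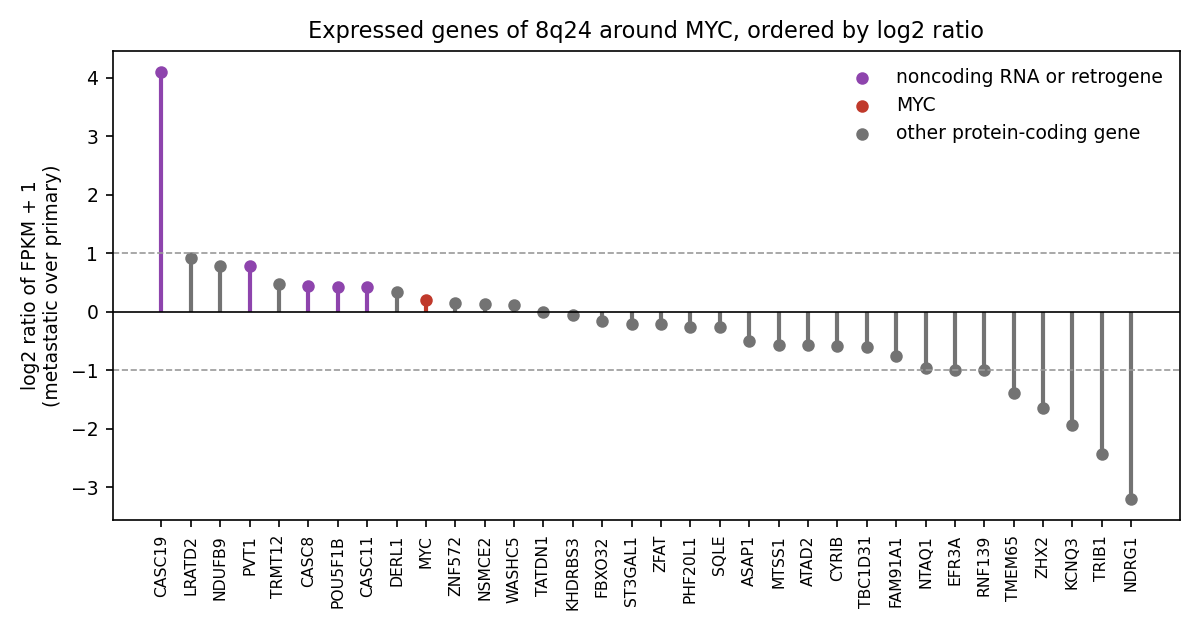
Log2 ratio, metastatic over primary, of expressed 8q24 genes around MYC in order of size, with dashed lines at the 2-fold limits and colours for MYC, noncoding RNAs with the retrogene POU5F1B, and other coding genes. CASC19 at 4.10 stands far above PVT1 at 0.78, CASC8 at 0.44 and MYC at 0.19, and NDRG1 at -3.20 is the lowest.

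Genes known to be activated by MYC, mostly of ribosome production and growth, stood higher in the metastatic tumor more often than lower. Of 57 expressed genes in this list, 13 were higher, or 22.8% against 9.22% of all entries, and 1 was lower, with a median log2 ratio of 0.40 against 0.03 over all entries. SRM, spermidine synthase, stood at 324 FPKM in the metastatic and 97.4 FPKM in the primary tumor. TCOF1, encoding the nucleolar protein treacle, stood at 51.8 FPKM in the metastatic and 15.7 FPKM in the primary tumor. NDUFAF4, an assembly factor of respiratory complex I, stood at 164 FPKM in the metastatic and 52.7 FPKM in the primary tumor, and the nucleolar gene NOP16 at 172 FPKM in the metastatic and 56.9 FPKM in the primary tumor. After rescaling to the same sum, the genes of the list called higher fell from 13 to 6. The share of all entries called higher fell from 9.22% to 7.17%, so the size of the excess depended on the scaling.

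Among the 13, named after their values were seen, NOP56, a core protein of box C/D small nucleolar particles, stood at 518 FPKM in the metastatic and 198 FPKM in the primary tumor. DKC1, the pseudouridine synthase dyskerin, stood at 149 FPKM in the metastatic and 71.4 FPKM in the primary tumor. The rest of the 13 were RRP9, RRP12, MYBBP1A, NOLC1, RCL1, SUPV3L1 and FARSA. Several classic targets were within 2-fold. ODC1, the polyamine synthesis enzyme, stood at 802 FPKM in the metastatic and 664 FPKM in the primary tumor. The nucleolar genes NCL and NPM1 stood at 1359 and 1342 FPKM in the metastatic tumor, against 999 and 1020 FPKM in the primary one. NPM1 has many processed copies, so its value is uncertain. CDK4 was level, at 200.3 FPKM in the metastatic and 203 FPKM in the primary tumor. HK2, a hexokinase, was the only one lower, at 7.62 FPKM in the metastatic and 17.4 FPKM in the primary tumor. LDHA and FBL were listed at 0 in both libraries and fall under the same limit on exact zeros.

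Genes known to be repressed by MYC went the opposite way as a list, with 8 of 24 expressed members lower, or 33.3% against 9.35% of all entries, and 0 higher. Their median log2 ratio was -0.36. This list and that of activated genes were chosen with earlier results of these data known, so their shares are descriptions only. ATF3, a stress-induced transcription factor, stood at 6.76 FPKM in the metastatic and 83.5 FPKM in the primary tumor. TXNIP, a thioredoxin-binding inhibitor of glucose uptake that MondoA also drives, stood at 11.2 FPKM in the metastatic and 81.1 FPKM in the primary tumor. DUSP1, a phosphatase of MAP kinases, stood at 25.4 FPKM in the metastatic and 101 FPKM in the primary tumor. NDRG1, given above, was the remaining one of the 4 widest. The list also holds KLF6, BTG2, ARRDC4 and CEBPD, which were lower and are named after their values were seen. ATF3, DUSP1, KLF6 and BTG2 are also immediate early genes, and NDRG1 also responds to low oxygen. The expressed cell cycle inhibitor genes of the list were within 2-fold, on both sides of 0. CDKN1A stood at 43.7 FPKM in the metastatic and 29.8 FPKM in the primary tumor, and CDKN2B at 115 FPKM in the metastatic and 76.1 FPKM in the primary tumor. CDKN1B stood at 23.6 FPKM in the metastatic and 36.9 FPKM in the primary tumor, and CDKN2C at 26.5 FPKM in the metastatic and 31.2 FPKM in the primary tumor.

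**Figure D4:**
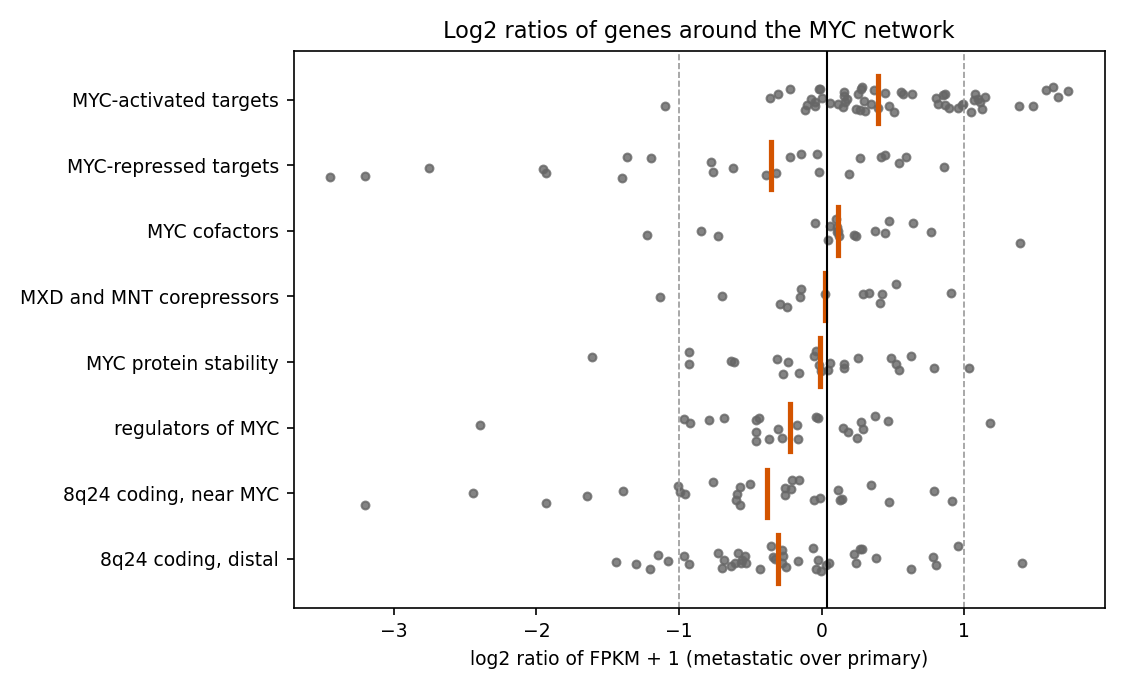
Log2 ratio, metastatic over primary, of each expressed gene (points, spread vertically only to be seen) in 8 lists, with orange bars at list medians, a solid line at the median of all entries and dashed lines at the 2-fold limits. The activated targets have a median of 0.40 and the repressed targets of -0.36, while cofactor, corepressor and stability lists lie near 0.

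Genes of the proteins that MYC recruits were mostly within 2-fold, with 1 of 19 expressed cofactor genes higher and 1 lower and a median log2 ratio of 0.11. Each count is 5.26%, against 9.22% of all entries higher and 9.35% lower. RUVBL1, an ATPase of the TIP60 complex, stood at 79.2 FPKM in the metastatic and 29.7 FPKM in the primary tumor. The acetyltransferase EP300 stood at 6.16 FPKM in the metastatic and 15.7 FPKM in the primary tumor, and its relative CREBBP at 6.79 FPKM in the metastatic and 13.0 FPKM in the primary tumor. WDR5, a chromatin scaffold of MYC, stood at 14.1 FPKM in the metastatic and 7.86 FPKM in the primary tumor. Among 13 corepressor genes used by MXD and MNT proteins, 1 was lower, or 7.69% against 9.35% of all entries, and 0 higher, with a median of 0.02. SIN3A, the scaffold that MXD proteins bind, stood at 9.09 FPKM in the metastatic and 15.4 FPKM in the primary tumor. BRMS1 stood at 48.7 FPKM in the metastatic and 25.5 FPKM in the primary tumor, and NCOR1 at 44.3 FPKM in the metastatic and 30.6 FPKM in the primary tumor.

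Genes acting on the stability of MYC proteins had 1 of 24 higher and 1 lower, with a median of -0.01. Each count is 4.17%, under the 9.22% and 9.35% of all entries. PIM1, a kinase that phosphorylates MYC, stood at 26.3 FPKM in the metastatic and 82.1 FPKM in the primary tumor. STUB1, a chaperone-linked ubiquitin ligase, stood at 325 FPKM in the metastatic and 159 FPKM in the primary tumor, at the 2-fold limit with a log2 ratio of 1.03, which all 3 rescalings took below it. The deubiquitinase gene USP28 stood at 5.70 FPKM in the metastatic and 11.8 FPKM in the primary tumor. FBXW7, the main ubiquitin ligase of MYC, was within 2-fold at 7.35 FPKM in the metastatic and 6.02 FPKM in the primary tumor.

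Regulators of the MYC gene or its RNA had 1 of 24 higher and 1 lower, again 4.17% against 9.22% and 9.35% of all entries, with a median of -0.23. The Wnt effector TCF7L1 was the lower one, at 0.771 FPKM in the metastatic and 8.33 FPKM in the primary tumor. TCF7L2, the Wnt effector that binds 8q24 enhancers in colorectal cells, stood at 22.5 FPKM in the metastatic and 44.9 FPKM in the primary tumor. The beta-catenin cofactor gene BCL9 stood at 3.14 FPKM in the metastatic and 6.84 FPKM in the primary tumor. E2F1, a cell cycle factor that binds the MYC promoter, stood at 11.7 FPKM in the metastatic and 4.59 FPKM in the primary tumor. CTCF, whose binding at the upstream noncoding genes has been tied to their contact with MYC, was level at 19.5 FPKM in the metastatic and 20.1 FPKM in the primary tumor.

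Likeness was measured as the Euclidean distance between genes in log2(FPKM + 1) over the 2 libraries. The entries nearest to MYC were U2AF2, TPD52L1 and TLN1, at distances of 0.012 to 0.050. Nearest to PVT1 were FIBP, CIAO2A and PLOD3, at 0.035 to 0.041. CASC19 had no such close entry. PLAU, the urokinase gene, was nearest at 0.48, with 111 FPKM in the metastatic and 9.11 FPKM in the primary tumor. AREG, a ligand of the EGF receptor, followed at 0.96 and the myosin light chain gene MYL9 at 1.04.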

How the data were processed

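RNA was sequenced from 1 metastatic and 1 primary xenograft. The authors deposited FPKM values, per the file headers, in 1 table of 62573 rows with 2 value columns. Build GRCh38 and the tools STAR 2.7.6a, Cufflinks 2.2.1 and bcl2fastq 2.18.0.12 appear in the submitters' processing notes, without their roles. The labels give mouse as the organism, while the symbols are human. No source used here gives the annotation, the strand setting, the filters or how mouse reads were handled. Reads from the host could raise conserved genes.

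Rows with the same label were summed, with Python 3.11.15 and pandas 2.3.3. A merged locus was credited to a gene if it otherwise named just clones, short RNAs or antisense RNAs. Entries needed 1 FPKM in a library, and the pseudocount was 1 FPKM. With 1 library per group no test was made. The counting of calls was run on simulated data with large built-in differences and an assumed noise. That checks the counting only, and says nothing on the calls made here, since the spread between replicates is unknown.

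The members and lists were chosen with earlier results of these data known, and 8q24 genes were assigned from general knowledge of the human map. Beyond all 10 symbols and those of the MAX network and noncoding lists, genes named are up to 4 of each list, taken by absolute log2 ratio, and the 3 nearest entries to MYC, PVT1 and CASC19. Genes marked as named after their values were seen fall outside that rule, as do ODC1, NCL, NPM1, CDK4, LDHA, FBL, CDKN1A, CDKN1B, CDKN2B, CDKN2C, FBXW7, CTCF and the cell type markers. NDRG1, PLK1, BOP1, FBXO32, AGO2 and PUF60 each stand in 2 lists. A few genes within that rule are left out here.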

Additional observations from a re-analysis of the deposited data

How the results depend on the processing

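The log2 ratios of the 9 symbols found kept their sign under every alternative that gave a value. The call of MXI1 was lost at a 4-fold threshold (log2 ratio -1.10), where 0 of the 10 symbols were lower, and that of CASC19 held, at 3.97 to 4.27. At 4-fold, 1.19% of all entries were higher and 1.88% lower, and without a filter 2.23% and 2.26% were past 2-fold. At 4-fold the counts fell to 2 lower near MYC, 0 higher and 0 lower along the distal band, 0 and 0 among cofactors, 0 lower among corepressors, 0 and 0 for stability genes, 0 higher for regulators, 0 and 0 for activated targets, and 3 lower for repressed targets. With pseudocounts of 0.1 and 0.5 FPKM, 1 coding gene near MYC and 2 distal ones were higher, and 2 regulators were lower. The whole table moved too, with 12.8% of all entries higher and 13.8% lower at 0.1 FPKM, and 11.1% and 11.6% at 0.5 FPKM. With 0.1 FPKM, 2 stability genes were lower, 1 repressed target was higher, and the noncoding neighbours had a median of 0.78. Rescaling to the same sum gave 6 higher activated targets, 2 lower cofactors, 0 higher and 3 lower stability genes and 3 lower regulators. The median ratio gave 0 higher stability genes and 2 lower regulators, and the 75th percentile 0 higher and 3 lower stability genes and 2 lower regulators. Of all entries, 7.17% were higher and 12.6% lower with the same sum. The median ratio gave 8.65% and 9.82% of all entries, and the 75th percentile 7.78% and 10.6%. Without a filter the medians were 0.0048 for noncoding neighbours and -0.0085 for distal genes, and with 5 FPKM -0.62 for repressed targets. For these changes the cause was not tested. Of 488 alternative values, 448 kept their side of the threshold or stayed near the value reported. Of all entries called, 36.2% were higher with equal sums, against 49.6% as deposited. No paired analysis was possible because each group held 1 library. Depth is unknown, so MYCN and MYCL, under 1 FPKM, allow no comparison.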
